A study of Mus musculus with 3 samples.

Results

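AY036118 and Gm42418 are annotated as non-coding genes that overlap a ribosomal RNA copy on mouse chromosome 17. Counts under their names are usually taken to derive from ribosomal RNA, which was not tested here. They lie on opposite strands, so molecules of AY036118 would be antisense to those of Gm42418. Both were taken by their symbols from the list of measured genes, 2 of 32285, and were chosen by their levels in cells and in droplets without a cell in these same files. What is said of those levels is therefore a description. Relative to all captured RNA, both stood higher in cells exposed to tubercidin than in control cells, and both stood many-fold higher in droplets without a cell than in cells. Counted per cell, without scaling to the total, both were lower after tubercidin, though by less than the median gene. Between AY036118 and Gm42418 the balance moved as well, from 3.15 AY036118 molecules per 100 Gm42418 molecules in control cells to 4.59 after 3 h and 7.54 after 6 h. With the mean content of a cell-free droplet subtracted from each cell, these ratios were 4.52, 3.72 and 12.3, so the direction at 3 h turned and that at 6 h did not.

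The study used E14, a line of mouse embryonic stem cells of 129/Ola background, kept on gelatin in medium with serum and leukaemia inhibitory factor. The control received DMSO, the solvent, for 6 h, and the treated cells received 10 uM tubercidin, an adenosine analogue, for 3 h or for 6 h. Polyadenylated RNA was captured with 10x Genomics Chromium 3' barcoding, and values are unique molecular identifiers (UMIs, each counting 1 captured molecule). Each condition was 1 library, so no difference here was tested, and every interval given is an exact 95% interval that covers counting error only.

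Called cells numbered 2031, 2365 and 2926 (control, 3 h and 6 h, the order of values below), with median totals of 48452, 11877 and 8004.5 UMIs. The barcodes after rank 5000 up to rank 15000 by UMIs, 10000 in each library and none a called cell, are called free barcodes below; such droplets mostly hold RNA from the surrounding fluid. They had medians of 343, 210 and 138 UMIs. Each pair of libraries shared 1 cell barcode and 32 to 38 free barcodes. All 8 embryonic stem cell markers were above 1 CPM (UMIs per 1000000 UMIs) in every library, with summed levels of 4347, 5178 and 3785 CPM. Summed markers stood at 6.19 to 9.76 CPM for primitive endoderm, 8.40 to 12.9 CPM for trophoblast, 0.334 to 0.810 CPM for fibroblasts and 0 to 1.05 CPM for 2-cell-like cells.

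Ribosomal RNA is made by RNA polymerase I as 1 long precursor, from which the mature RNAs of the small and the large ribosomal subunit are cut in the nucleolus. It makes up most of a cell's RNA, but it lacks the long A tail by which messenger RNA is captured, so only a small part of it enters a library of polyadenylated RNA. Trimmed and faulty precursors receive short A tails that lead to their decay by the nuclear exosome. These are textbook facts, and none was measured here.

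In the GENCODE M21 annotation of GRCm38 (mm10), Gm42418 (ENSMUSG00000098178) is a long non-coding RNA gene of 1 exon and 1831 bases at chr17:39846958-39848788 on the plus strand. AY036118 (ENSMUSG00000105361), also of 1 exon, spans 923 bases at chr17:39847113-39848035 on the minus strand. It lies wholly inside Gm42418, as the exact reverse complement of bases 156 to 1078 of that gene. RefSeq places Rn18s-rs5, a pseudogene of the small-subunit RNA that it also lists as Gm42418, at chr17:39846354-39848202. That copy covers 1245 bases of Gm42418, or 68.0%, and all of AY036118 as GENCODE draws it. The strand of the copy was not given, so which member reads in its direction was not settled here. The RefSeq model named AY036118 lies elsewhere, 76 bases beyond the end of the GENCODE one, so the symbol does not name the same stretch in both. Gm26917 (ENSMUSG00000097971), a non-coding RNA gene on the plus strand, ends 12 bases before the copy. The submitters' processing notes name mm10, while the annotation release and the strand setting of the counting are not given in the sources used here. Because the pair overlap on opposite strands, molecules of one cannot be told apart from those of the other unless strand was used.

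**Figure D1:**
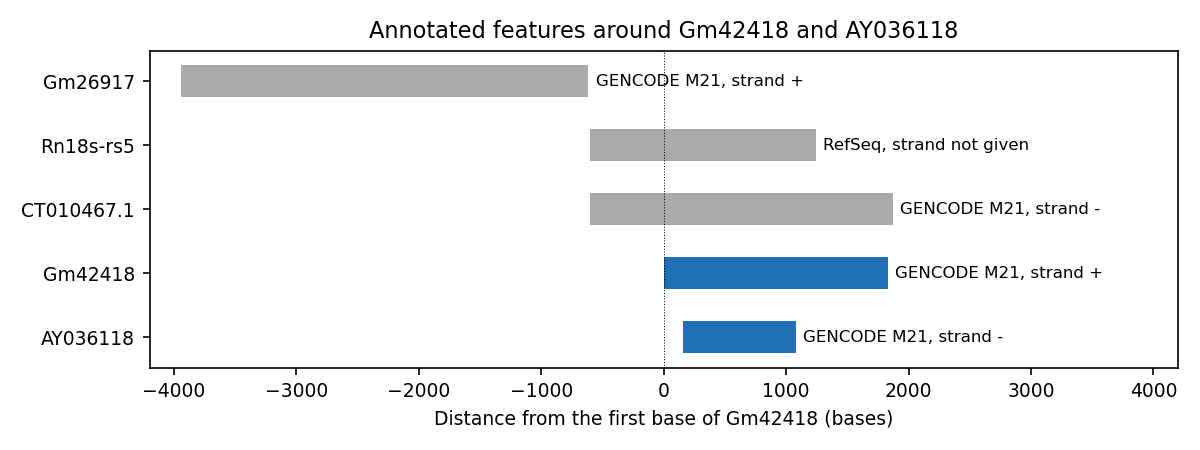
Annotated features around Gm42418 and AY036118, with distance in bases from the first base of Gm42418 on the x axis and 1 row per feature; blue bars are the members, grey bars other features. AY036118 lies wholly within Gm42418 on the opposite strand, and the small-subunit RNA copy Rn18s-rs5 covers all of it and 68.0% of Gm42418, while Gm26917 stops 12 bases short of the copy.

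The libraries were made with a primer that pairs with A stretches, so the longest A run of each gene is shown. Positions are counted from the first base of each gene, sequences run 5′ to 3′, and capitals mark the run. The first line is the longest run of Gm42418 (bases 185 to 240, chr17:39847142-39847197, plus strand). The second line is the same stretch as AY036118 reads it (bases 839 to 894, minus strand). The third line is one of the longest A runs of AY036118 (bases 753 to 806, chr17:39847230-39847283, minus strand). All are from GENCODE M21 transcripts on GRCm38.
Gm42418: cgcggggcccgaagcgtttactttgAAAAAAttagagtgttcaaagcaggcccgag
AY036118: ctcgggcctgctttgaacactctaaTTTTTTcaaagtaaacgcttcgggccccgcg
AY036118: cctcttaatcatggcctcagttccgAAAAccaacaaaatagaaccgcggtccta
Gm42418 held 1 run of 6 A, whereas the longest A run of AY036118 was 4, its run of 6 being T. Other measures went the other way. The 20 bases richest in A held 13 A in AY036118 and 11 in Gm42418, and A made up 22.2% and 17.7% of these genes. Where the primer paired was not tested. The letters AAAAAA, searched on both strands, stood on the reading strand in the last 1831 bases of 57.2% of 46285 transcripts at least that long, and in the last 923 bases of 38.7% of 72727. AATAAA, the usual signal for adding an A tail, was on the reading strand of neither gene, and 74.3% and 60.1% of transcripts held it in windows of the same lengths. Gm42418 was 60.2% G and C, and AY036118 54.4%.

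Gm42418 was among the abundant RNAs of every library. In cells it had 236929 UMIs in the control, 112179 after 3 h and 103129 after 6 h, or 2259 CPM (2250 to 2268), 3753 CPM (3731 to 3775) and 4178 CPM (4153 to 4204). Every called cell of each library held at least 2 UMIs of it. Its ratio over the control was 1.66-fold at 3 h, or 0.73 as log2 with a pseudocount of 1 CPM (0.72 to 0.74 without it), and 1.85-fold at 6 h, or 0.89 as log2 (0.88 to 0.90). Both ratios share the control library. Among the 7884 genes that averaged 10 CPM or more, 160 had a higher ratio at 3 h and 237 at 6 h.

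AY036118 was counted far less often. It had 7469, 5146 and 7778 UMIs in cells, or 71.2 CPM (69.6 to 72.8) in the control, 172 CPM (167 to 177) after 3 h and 315 CPM (308 to 322) after 6 h. Its ratio over the control was 2.42-fold at 3 h, or 1.26 as log2 (1.22 to 1.33), and 4.43-fold at 6 h, or 2.13 as log2 (2.10 to 2.19). On this scale, though not per cell, the level was lowest in the control and highest at 6 h, and the 3 intervals did not overlap. By comparison, 38 genes at 3 h and 20 at 6 h had a higher ratio.

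One of the members, AY036118, was at least 2-fold higher in cells at 3 h, where 0.888% of genes were, and again at 6 h, where 2.33% were; Gm42418 was not at either time. With the mean free barcode subtracted from each cell, Gm42418 was also past 2-fold at 3 h, with a log2 ratio of 1.37, and at 6 h it was not, with 0.68. Since these contrasts had drawn attention to the pair, the counts only describe it. From 3 h to 6 h neither passed 2-fold, where 1.64% of genes were higher and 0.165% lower. AY036118 was 1.83-fold higher, a log2 ratio of 0.87, and Gm42418 1.11-fold, a log2 ratio of 0.15 beside the median gene's 0.14. For Gm42418 this sign turned with median-of-ratios factors (-0.0718), TMM factors (-0.0681), per cell (-0.43) and with the mean free barcode subtracted (-0.69). AY036118 passed 2-fold from 3 h to 6 h with that subtraction (1.03) and with at most 5% mitochondrial UMIs (1.01).

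The direction depends on the scale. The median gene had log2 ratios of -0.27 and -0.12 over the control. Relative to it, AY036118 was higher by 1.53 and 2.25, and Gm42418 by 1.00 and 1.01, on the log2 scale. Per cell, by contrast, Gm42418 averaged 117 UMIs in the control, 47.4 after 3 h and 35.2 after 6 h, which is 2.46-fold and 3.31-fold lower after tubercidin. AY036118 averaged 3.68, 2.18 and 2.66 UMIs per cell, 1.69-fold and 1.38-fold lower. The median gene was lower per cell by more, with log2 ratios of -2.26 and -2.66. Past 2-fold lower per cell were 7803 and 7825 of 7884 genes, so this direction was not particular to the members. Fewer molecules per cell, a poorer capture and shallower sequencing of each library cannot be told apart.

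The neighbouring Gm26917 followed another course. It stood at 318 CPM in control cells, 1637 CPM at 3 h and 552 CPM at 6 h, or 16.4, 20.7 and 4.66 UMIs per cell. From 3 h to 6 h its log2 ratio was -1.57, and 7881 of 7884 genes had a higher one. Malat1, an abundant nuclear non-coding RNA, stood at 3185, 3615 and 2355 CPM. Neat1, the scaffold RNA of paraspeckles, stood at 72.7, 103 and 121 CPM.

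**Figure D2:**
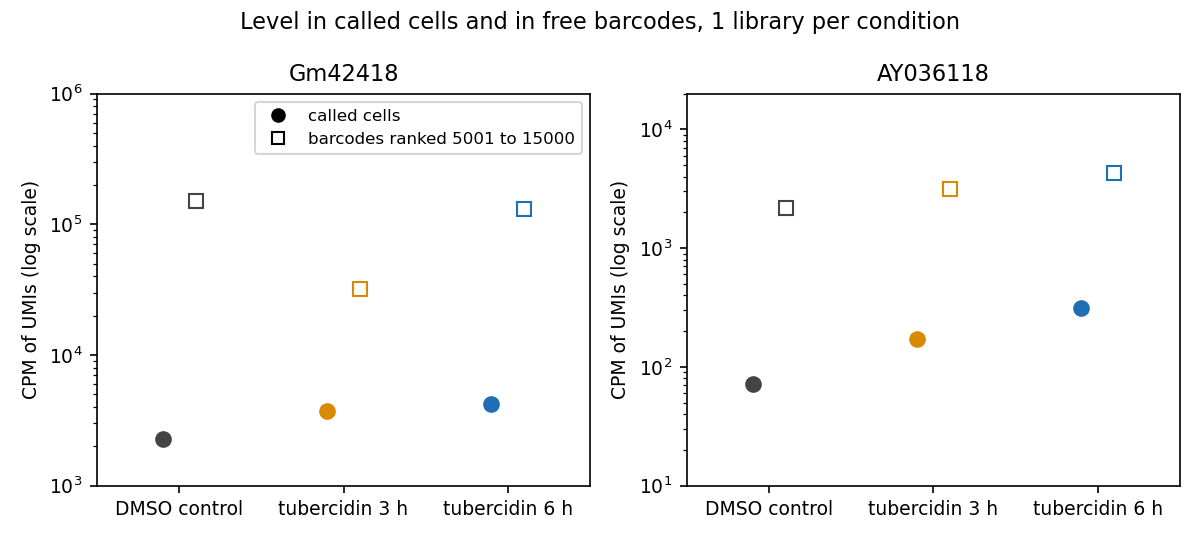
Level of Gm42418 (left) and AY036118 (right) in CPM of UMIs on a log scale, with 1 library per condition on the x axis; filled circles are called cells and open squares free barcodes. In cells Gm42418 runs from 2259 to 4178 CPM and AY036118 from 71.2 to 315 CPM, both lowest in the control on this scale. Per cell both are lower after tubercidin, as nearly all genes are. Free barcodes lie above the cells for both genes in every library.

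Free barcodes exceeded cells in their level of both RNAs by more than for nearly all other genes. Gm42418 made up 15.0% of all UMIs of free barcodes in the control, 3.22% after 3 h and 13.1% after 6 h, against 0.226%, 0.375% and 0.418% in cells. In CPM this was 66.5-fold, 8.59-fold and 31.3-fold higher than in cells, with log2 ratios of 6.05, 3.10 and 4.97. Of 7884 genes, 1, 2 and 1 had a higher ratio. Taking barcodes with 50 to 100 UMIs instead, 511, 300 and 5846 in number, gave 6.31-fold, 7.92-fold and 30.5-fold, so the control went from the highest to the lowest of the libraries. AY036118 stood at 2195, 3124 and 4250 CPM in free barcodes, which was 30.8-fold, 18.1-fold and 13.5-fold higher than in cells, and 7.73-fold, 14.7-fold and 14.9-fold with barcodes of 50 to 100 UMIs. Its log2 ratios were 4.93, 4.17 and 3.75, and 2, 1 and 3 genes had a higher one. Both members were thus at least 2-fold higher in free barcodes of every library, as were 0.901%, 0.469% and 0.609% of genes, while 0.622%, 7.84% and 5.85% were at least 2-fold lower. Malat1 and Neat1 were not, with log2 ratios of free barcodes over cells between -0.29 and 0.06, and Gm26917 had 0.50, -0.42 and 0.98.

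Between libraries, the free barcodes moved differently for each gene. Gm42418 had its lowest level there at 3 h, 4.66-fold below the control in CPM and 7.56-fold below it in UMIs per barcode. At 6 h it was 4.06-fold above 3 h, with a log2 ratio of 2.02 that 10 genes exceeded, and 1.15-fold below the control. AY036118 had log2 ratios over the control of 0.51 at 3 h and 0.95 at 6 h in the same barcodes. Per barcode, however, it averaged 0.762, 0.668 and 0.601 UMIs, the lowest at 6 h, so its direction turned with the scale. In free barcodes at 3 h Gm42418 was past 2-fold lower, as 25.3% of genes were (2.78% were higher), and from 3 h to 6 h it was past 2-fold higher, as 6.52% were (1.64% were lower). AY036118 was past neither, and neither member was past 2-fold at 6 h over the control in either direction, where 1.53% were higher and 12.3% lower.

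Much of what either gene counted lay outside cells. Of all Gm42418 UMIs in the files, 17.9% in the control, 42.5% after 3 h and 19.4% after 6 h were in called cells. For AY036118 the shares were 29.6%, 25.9% and 31.9%. For Gm26917, by comparison, they were 81.9%, 80.0% and 64.7%. The mean free barcode held 44.7%, 14.5% and 52.4% as many Gm42418 UMIs as the mean cell, and 20.7%, 30.7% and 22.6% as many AY036118 UMIs. Over all genes it held 0.672%, 1.69% and 1.68% as many. How far the counts in cells came from the surrounding fluid was not tested.

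Ordering all barcodes by total UMIs shows where the levels change. In the control, Gm42418 stood at 1921 CPM among the 500 largest barcodes, at 2532 CPM at ranks over 1000 up to 2000, all called cells, and at 36449 CPM at ranks over 2000 up to 3000, of which 31 were called cells. It then held at 150419 CPM at ranks over 3000 up to 5000 and 133741 CPM at ranks over 15000 up to 50000, and stood at 5839 CPM at ranks over 50000 up to 200000, where the median barcode had 3 UMIs. The pooled share thus rose where cells ended and varied little from there to rank 50000. At ranks over 15000 up to 50000 the median barcode had 7, 3 and 10 UMIs (control, 3 h and 6 h). The larger barcodes of that window therefore weigh most in its level. At 6 h the rise came later, with 5721 CPM at ranks over 2000 up to 3000, of which 926 were called cells, and 44200 CPM at ranks over 3000 up to 5000. At 3 h, where 365 cells were called at ranks over 2000 up to 3000, the plateau was low, between 27523 and 32231 CPM beyond rank 3000 up to 50000. AY036118 had its plateau at 1913 to 2348 CPM in the control and 2337 to 3124 CPM at 3 h over those ranks, and reached 4642 CPM at ranks over 15000 up to 50000 at 6 h. In the windows where called cells gave way to other barcodes, the mitochondrial share of UMIs was 11.6% in the control and 8.33% at 3 h, at ranks over 2000 up to 3000, and 7.31% at 6 h, at ranks over 3000 up to 5000.

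**Figure D3:**
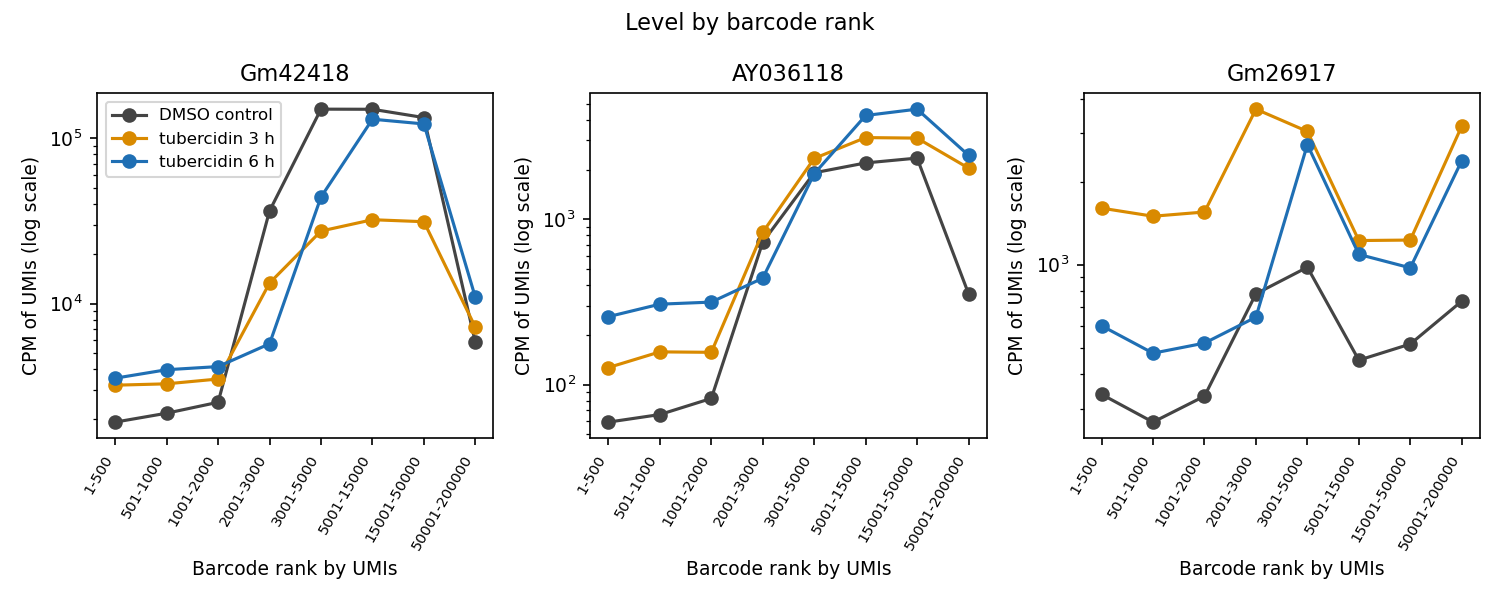
Level in CPM on a log scale for Gm42418, AY036118 and Gm26917, in windows of barcodes ranked by total UMIs (x axis, largest first), 1 line per library. Gm42418 rises from 1921 CPM to about 150419 CPM between the largest control barcodes and ranks over 3000 up to 5000. Its plateau up to rank 50000 is lower at 3 h, although the largest barcodes at 3 h stand higher than those of the control. Gm26917 lacks such a plateau.

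Among cells, Gm42418 was spread unevenly. Its UMIs per cell had a lowest value of 28, a median of 104 and a highest of 1231 in the control. At 3 h these were 2, 39 and 373, and at 6 h 3, 32 and 1039. The ranges of the libraries overlapped, although the control's 5th percentile of 65 UMIs lay above the medians of both treated libraries. Single cells stood far out. The control cell with 1231 UMIs held 28 UMIs of AY036118, and Gm42418 made up 3.32% of its 37127 UMIs. A cell at 6 h with 1039 UMIs, 7.74% of its total, held 1 UMI of AY036118, so a high count of one gene did not always come with the other. The top 1% of cells by Gm42418 held 5.29%, 4.41% and 4.67% of its UMIs in cells.

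AY036118 had a median of 3 UMIs per cell in the control and 2 in each treated library, with highest values of 126, 15 and 32. At least 1 UMI was seen in 93.5%, 79.7% and 83.6% of cells, and in 52.4%, 47.5% and 44.4% of free barcodes despite their far lower totals. These shares follow depth as well as level. When each cell was thinned to 4000 UMIs, leaving out 0, 122 and 284 shallower cells, AY036118 was seen in 24.0% (22.1 to 25.9), 45.3% (43.2 to 47.3) and 64.6% (62.8 to 66.5) of cells. Averaged over all possible draws, the share was 25% in the control, 45.8% after 3 h and 64.8% after 6 h. At equal depth the order was that of the CPM, with the control lowest. Thinning draws from each cell's share of UMIs, so this order largely restates the CPM and is not a separate result.

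The scatter over thinned cells exceeded that of random sampling. The Fano factor, the variance over the mean, is 1 for random sampling; for Gm42418 it was 12.7, 16.1 and 7.13, higher than for all of the 69, 58 and 52 genes of like mean level, whose medians were 1.32, 1.79 and 1.63. AY036118 had Fano factors of 1.84, 1.79 and 1.65 against medians of 1.03, 1.06 and 1.08 in 1781, 646 and 442 genes of like mean, of which 1, 1 and 2 had higher ones. The control's value varied between draws and cells, with 1.37 in a second random draw, 1.29 with at most 10% mitochondrial UMIs and 1.48 without large cells, and 1 of its cells held 126 UMIs where the next held 29. In free barcodes, without thinning, the Fano factor of Gm42418 was 2.26, 1.37 and 1.95 and that of AY036118 1.05 to 1.06. Scatter between free barcodes was thus smaller than between cells for both genes.

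**Figure D4:**
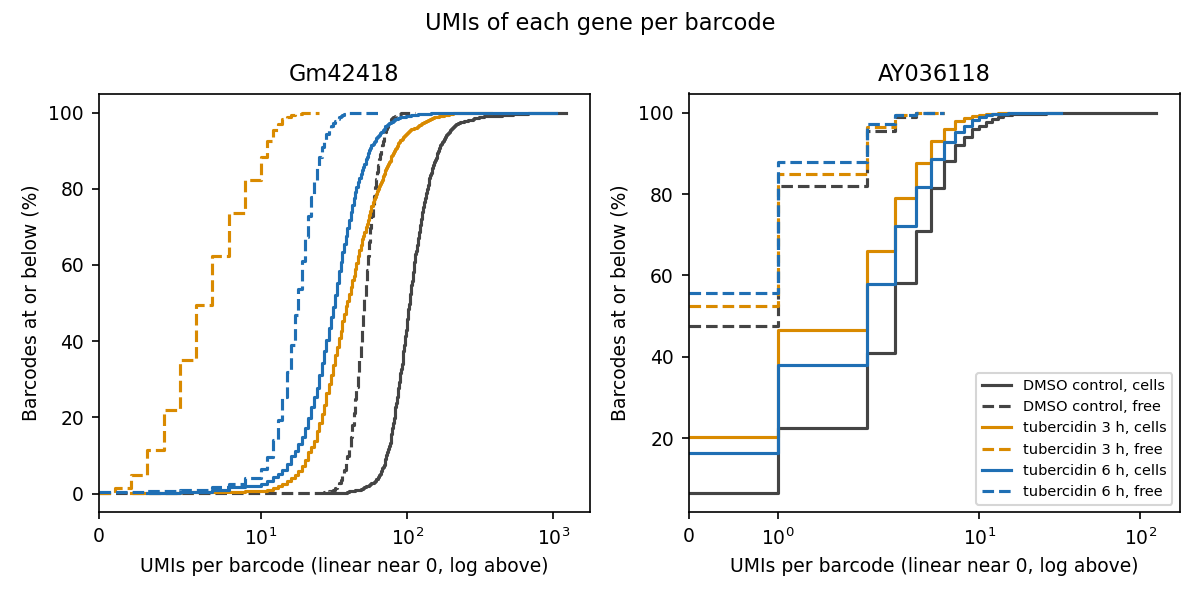
Cumulative share of barcodes (y axis, percent) by UMIs per barcode (x axis, linear near 0 and log above) for Gm42418 (left) and AY036118 (right); solid lines are called cells, dashed lines free barcodes, 1 colour per library. For Gm42418 the medians of cells are 104, 39 and 32 UMIs and those of free barcodes 51, 7 and 18 of the control, of 3 h and of 6 h, with tails up to 1231 UMIs in cells against 113 in free barcodes.

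The level of both genes varied with the size of the cell's library. In 5 classes of control cells of like size by total UMIs, from a median of 33329 to one of 73494, Gm42418 averaged 107, 96.9, 106, 122 and 151 UMIs, so its CPM went from 3495 to 1887. At 6 h it averaged 24.7, 29.5, 33.4, 38.4 and 50.2 UMIs as the median total went from 4070.5 to 12988. The class of smallest totals at 3 h, with 46.7 UMIs, stood above the next, with 34.3, and had a median of 5.04% mitochondrial UMIs against 2.96% to 3.31% in the others. UMIs of Gm42418 per cell thus grew less than the total did. A straight line through cells with at most 5% mitochondrial UMIs met a total of 0 at 43.0, 9.99 and 10.7 UMIs of Gm42418, beside means of 52.1, 6.89 and 18.5 UMIs per free barcode. The same line gave 1.73, 0.881 and 0.551 UMIs for AY036118, beside means of 0.762, 0.668 and 0.601 per free barcode. Through all cells the line met a total of 0 higher, at 68.0, 26.6 and 14.5 UMIs of Gm42418 and at 2.54, 1.92 and 1.13 UMIs of AY036118.

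**Figure D5:**
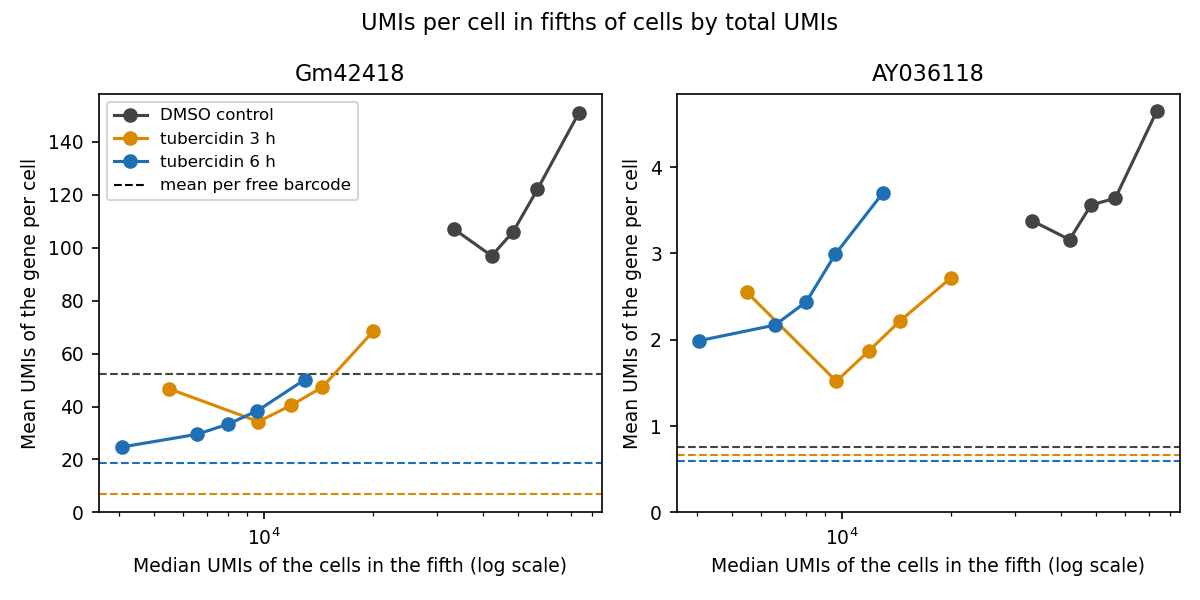
Mean UMIs per cell of Gm42418 (left) and AY036118 (right) in 5 classes of the cells of each library by total UMIs, against the median total of the class (log scale); dashed lines mark the mean per free barcode. Gm42418 runs from 107 to 151 UMIs in the control and from 24.7 to 50.2 UMIs at 6 h, and the leftmost class at 3 h lies above the next.

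Cells with a high mitochondrial share, a usual sign of a damaged cell, had more of both RNAs relative to their totals. In cells with at most 2.5% mitochondrial UMIs, Gm42418 stood at 2005, 3131 and 3846 CPM. In those with over 10% it stood at 13501, 13596 and 14725 CPM. AY036118 ran from 62.4, 140 and 277 CPM to 605, 961 and 1449 CPM between the same classes. The rise per cell was smaller. Gm42418 averaged 110, 44.9 and 35.0 UMIs in the first class and 196, 55.1 and 38.2 in the last. AY036118 averaged 3.43, 2.01 and 2.52 UMIs in the first class and 8.77, 3.90 and 3.76 in the last. Cells with over 10% numbered 26 in the control, 124 after 3 h and 50 after 6 h, so they were unequal between libraries, and their totals were small, with medians of 13516, 3816.5 and 2421 UMIs. With cells of at most 5% only, the log2 ratios over the control were 1.09 and 2.11 for AY036118 and 0.63 and 0.90 for Gm42418, higher than the control on this scale, as in all cells.

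The ratio of the members needs no scaling to the total, because both come from the same barcodes. AY036118 counted 3.15 (3.08 to 3.23) per 100 Gm42418 UMIs in control cells, 4.59 (4.46 to 4.72) at 3 h and 7.54 (7.37 to 7.72) at 6 h. These intervals were far apart. In the 5 classes of cells by total UMIs the ratio lay between 2.99 and 3.35 in the control, 3.97 and 5.45 at 3 h, and 7.30 and 8.05 at 6 h, so no class of one library reached the range of another. Subtracting the mean free barcode from each cell gave 4.52, 3.72 and 12.3, which puts 3 h below the control instead of above it. In cells with more than 5% mitochondrial UMIs it was 3.13, 5.63 and 10.3, and in those with at most 5% it was 3.15, 4.37 and 7.36. In the treated libraries, cells rich in mitochondrial UMIs thus had the higher ratio, and in the control they did not.

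Free barcodes gave another order. There AY036118 counted 1.46 (1.43 to 1.50) per 100 Gm42418 UMIs in the control, 9.69 (9.45 to 9.94) after 3 h and 3.25 (3.17 to 3.33) after 6 h. The ratio was thus lower in free barcodes than in cells of the control and of 6 h, and higher than in cells at 3 h. On the log2 scale, free barcodes differed from cells by -1.11, 1.08 and -1.21. In barcodes with 50 to 100 UMIs, AY036118 of the control counted 3.86 (2.31 to 6.10) per 100, from 19 UMIs in 511 barcodes. This was 0.29 above cells on the log2 scale, but the interval holds the 3.15 of cells, so the direction there is not settled. The treated libraries had 8.49 and 3.69 per 100 in such barcodes. Gm26917 counted 14.1, 43.6 and 13.2 per 100 Gm42418 UMIs in cells and 0.300, 3.80 and 0.833 in free barcodes.

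Over cells, the shares of UMIs taken by AY036118 and Gm42418 moved together, with Pearson correlations of 0.580, 0.592 and 0.497 over 2031, 2365 and 2926 cells. With at most 5% mitochondrial UMIs they were 0.364, 0.496 and 0.235, and over free barcodes, on UMIs, 0.041, 0.024 and 0.027. All points of a correlation share 1 library, and both shares have the same total as divisor. The share of Gm42418 had correlations of 0.598, 0.510 and 0.503 with the mitochondrial share, and of 0.149, 0.025 and 0.029 in cells with at most 5%. For AY036118 these were 0.528, 0.608 and 0.525 in all cells, and 0.066, 0.042 and 0.078 in cells with at most 5%. By rank (Spearman) they were lower in all cells, at 0.275, 0.361 and 0.185 for Gm42418 and 0.168, 0.270 and 0.194 for AY036118. With at most 5% the rank values were higher, at 0.203, 0.159 and 0.072, and 0.104, 0.065 and 0.097. Between the members, rank values were 0.449, 0.442 and 0.352 in all cells, and 0.145, 0.295 and 0.225 over thinned cells.

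Of 998 genes with at least 0.5 UMIs per thinned cell on average, Gm42418 was most like AY036118 over cells, with a mean correlation of 0.356 over the libraries against a median of -0.028. It was followed by mt-Atp6, a subunit of the mitochondrial ATP synthase, at 0.287, and mt-Co1, mt-Co3 and mt-Co2, subunits of cytochrome c oxidase, at 0.270 to 0.282. For Gm42418 the first was Camk1d, a calcium-dependent kinase gene, at 0.466 against a median of -0.046, followed by the same 4 mitochondrial genes at 0.357 to 0.398. Camk1d also lay near Gm42418 in its levels, with 287, 214 and 701 CPM in cells and 26276, 4063 and 32620 CPM in free barcodes. By distance of the centred log2 profile over the 3 libraries in cells and in free barcodes, the nearest to Gm42418 among 7883 genes were Lars2 (1.52), Camk1d (1.60), Gm15564 and Naaladl2 (2.12 each) and AY036118 (2.19), where the median gene lay at 6.45. Among the nearest to AY036118 were Gm15564 (2.02), Lars2 (2.12), Gm42418 (2.19) and Gm12216 (2.83), where the median gene lay at 5.99. Lars2, the mitochondrial leucyl-tRNA synthetase gene, had 47.0, 116 and 88.3 CPM in cells and 1354, 396 and 1527 CPM in free barcodes. Stretches of 31 bases of Gm42418, searched on both strands in all GENCODE M21 transcripts but those of AY036118 and Gm26917, occurred only in CT010467.1, a ribosomal RNA gene that overlaps it on the opposite strand and is not among the measured genes. The search covered transcripts and the sequence of Gm42418 only. Introns of the genes named above, and likeness to other ribosomal RNA, were not searched.

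The messages of the machinery that makes and destroys ribosomal RNA come next, relative to total UMIs. Of 15 genes of RNA polymerase I and its factors, 0 were past 2-fold at 3 h, where 0.888% of all genes were higher and 5.54% lower, or at 6 h, where 2.33% were higher and 4.41% lower. In lists of this size these shares come to about 1 gene, so the count says nothing particular to the list. Their median log2 ratios were -0.06 and 0.03, beside -0.27 and -0.12 for all genes. At the ends of the list stood Polr1e, a polymerase subunit, at 0.52 and Taf1b, of the promoter selectivity factor, at -0.61 for 3 h, and the terminator Ttf1 at 0.66 and the subunit Twistnb at -0.87 for 6 h. From 3 h to 6 h Ttf1 alone was past 2-fold higher, where 1.64% of all genes were higher and 0.165% lower. Its log2 ratio of 1.01 was 0.79 with either median-of-ratios or TMM factors.

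Of 22 genes of ribosomal RNA processing, 0 were past 2-fold in any of the 3 comparisons, with medians of 0.03, 0.12 and 0.05. Of all genes, 0.888%, 2.33% and 1.64% were higher and 5.54%, 4.41% and 0.165% lower. In a list of this size few or none would be past 2-fold at such shares, so the count says nothing particular to it. With median-of-ratios or TMM factors, 1 was higher at 3 h. Fbl, the methyltransferase of small nucleolar particles, had the highest log2 ratio at 3 h, 0.82, and the helicase gene Ddx21 the lowest, -0.64. At 6 h the ends were Utp20, of the small-subunit processome, at 0.72 and Nob1, the nuclease that trims the small-subunit RNA, at -0.81. From 3 h to 6 h they were Ddx21 at 0.93 and Rcl1 at -0.35.

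Of 14 tested genes of nuclear RNA surveillance, 1 was past 2-fold lower, Exosc3, a cap subunit of the exosome that binds its RNA, beside 5.54% and 4.41% of all genes at 3 h and 6 h, a share near that of the list. It stood at 60.9 CPM in the control, 24.0 after 3 h and 21.8 after 6 h, with log2 ratios of -1.31 and -1.44, lower with every scaling tried. Exosc5, a core subunit, was highest at both times, at 0.33 and 0.70. The list's medians were -0.21 and -0.25. Per cell all 15, 22 and 14 genes of these lists were past 2-fold lower at both times, as were 7803 and 7825 of all 7884 genes. The median gene stood at -2.26 and -2.66, so the count says nothing particular to the lists.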

How the data were processed

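Per the labels, polyadenylated RNA of single cells was measured in 3 libraries, 1 per condition. The authors deposited raw counts of UMIs for each gene in each barcode, without a cell filter, made with Cell Ranger 7.1.0 on mm10, per the submitters' processing notes. The libraries held 115656427, 35374540 and 29353325 UMIs (control, 3 h, 6 h), of which 104892739, 29892000 and 24681924 were in called cells. A barcode was called a cell when it had 500 genes or more, no more than 20% mitochondrial UMIs, and a total no smaller than 1/10 of the 99th percentile among the top 3000. Doublets were kept, no doublet caller was run and cells were not clustered. UMIs were summed over cells or over free barcodes and compared as log2(CPM + 1). Shares have Clopper-Pearson intervals, levels exact Poisson intervals and ratios exact conditional binomial intervals. Genes were called past 2-fold among 7884 with a mean of at least 10 CPM. Genes of like mean lie within 1.5 times of a member's thinned mean. Intervals treat UMIs as independent molecules and cover counting error only.

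The members and lists were chosen with earlier results of these data known. Beside the members, the genes named were Gm26917, Malat1 and Neat1, the 5 genes most like each member by either measure, and, in each list, those past 2-fold and both ends. Of the genes most like a member, 1 is not reported here. The statistics were checked on simulated counts. Annotation and sequences came from GENCODE M21 and RefSeq GRCm38.p6. Settings changed as alternatives were the mitochondrial limit, the cell cut-off, large cells, scaling, subtraction of free RNA, weighting of cells, pseudocount, gene filter, choice of free barcodes and thinning; the ratio of the members under subtraction and in other free barcodes was added after seeing the data. Software was R 4.3.3 with edgeR 4.0.16 (for TMM factors) and Python 3.11.15 with scipy 1.17.1, pandas 2.3.3, matplotlib 3.10.9 and numpy 2.4.6.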

Additional observations from a re-analysis of the deposited data

Results flagged for a closer look

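The balance of AY036118 and Gm42418 between free barcodes and cells changed sign between libraries. The log2 of AY036118 per Gm42418 in free barcodes over that in cells was -1.1086 in the control, 1.0792 after 3 h and -1.2145 after 6 h, so 3 h differed in sign from the control and 6 h from 3 h. Other choices of free barcodes gave other values: barcodes with 50 to 100 UMIs gave 0.29, 0.89 and -1.03, and ranks over 15000 up to 50000 gave -0.84, 1.11 and -0.99. The control's 0.29 came from 19 UMIs of AY036118, or 3.86 (2.31 to 6.10) per 100 Gm42418 UMIs. That interval holds the 3.15 of control cells, so the control's sign in those barcodes is not settled. Gm26917 also changed sign, with log2 ratios of its CPM in free barcodes over cells of 0.4992 in the control, -0.4193 after 3 h and 0.9798 after 6 h. With 1 library per condition, none of these differences was tested.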

How the results depend on the processing

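No paired analysis was possible because each condition was 1 library. Values are log2 ratios unless said otherwise. For 3 h over the control, AY036118 then Gm42418 stood at 1.33 and 0.76 with the lower cell cut-off (0.5 times), 1.12 and 0.66 with the higher (2 times), 1.18 and 0.69 with at most 10% mitochondrial UMIs, 1.501 and 0.97 with median-of-ratios factors, 1.45 and 0.92 with TMM, and 1.48 and 0.84 with cells weighted equally. Without large cells Gm42418 was 0.74. For 6 h over the control, Gm42418 stood at 0.91 with the lower cut-off, 0.90 without large cells, 0.90 with median-of-ratios factors, 0.86 with TMM and 0.84 with equal weights. For 6 h over 3 h, AY036118 then Gm42418 stood at 1.00 and 0.24 with the higher cut-off, 0.96 and 0.20 with at most 10%, 0.64 and -0.0718 with median-of-ratios factors, 0.65 and -0.0681 with TMM, and 0.64 and 0.0052 with equal weights. Counted per cell, AY036118 stood at -0.75, -0.47 and 0.29 and Gm42418 at -1.30, -1.73 and -0.43 in the 3 comparisons. These scalings moved the median gene: at 3 h by 0.23 (median-of-ratios), 0.19 (TMM) and -1.98 (per cell), at 6 h by -2.54 per cell, and for 6 h over 3 h by -0.22, -0.21 and -0.55. The share of higher among genes past 2-fold moved with them, from 13.8% to 45.6%, 38.4% and 0.0768% at 3 h, from 34.6% to 0.0766% per cell at 6 h, and from 90.8% to 55.9%, 55.9% and 3.20% for 6 h over 3 h.

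Subtracting the mean free barcode from each cell, chosen after seeing the data, gave 1.08 and 1.37 at 3 h, 0.68 for Gm42418 at 6 h, and 1.03 and -0.69 for 6 h over 3 h. The planned subtraction of free RNA at 10% of UMIs gave no ratio, because it took away more than cells held, except for Gm42418 at 3 h, where 530 of 3753 CPM were left. At most 5% mitochondrial UMIs, also chosen afterwards, gave 1.09 and 0.63 at 3 h, 0.90 for Gm42418 at 6 h, and 1.01 and 0.27 for 6 h over 3 h. Genes past 2-fold numbered 507, 532 and 142, against 117, 117 and 27 with a mean of at least 50 CPM and 1081, 1386 and 422 without a filter.

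For free barcodes over cells, AY036118 then Gm42418, ranks over 15000 up to 50000 gave 5.02 and 5.89 in the control, 3.06 for Gm42418 at 3 h, and 3.88 and 4.87 at 6 h. Barcodes with 50 to 100 UMIs (511, 300 and 5846) gave 2.93 and 2.66, 3.87 and 2.99, and 3.90 and 4.93. Scaling without both members gave 5.16 and 6.29, 3.15 for Gm42418 at 3 h, and 3.95 and 5.17. Scaling without mitochondrial genes gave 6.06, 3.07 and 4.95 for Gm42418. At most 5% mitochondrial UMIs gave 4.996 and 6.12, 4.41 and 3.27, and 3.84 and 5.03.

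Thinned to 2000 UMIs, AY036118 was seen in 15.2%, 31.1% and 45.1% of cells and Gm42418 in 97.9% and 99.3% of control and 3 h cells; the control's Fano factors were 1.21 and 7.16. In the control AY036118 was seen in 26.5% of cells without large cells and in 27.0% in a second random draw, chosen after seeing the data. The other 68 values kept direction and moved by less than their counting interval. The cause of each shift was not tested. Depth limits the treated libraries most: 3 counts equal 0.0286, 0.100 and 0.122 CPM.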
